A study of Rattus norvegicus with 10 samples.

Results

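Ribosome biogenesis genes are the genes whose products make ribosomal RNA and assemble it with ribosomal proteins into the small and the large subunit, mainly in the nucleolus. A list of 45 such genes was chosen by name and by function, with earlier results of these data known. It holds RNA polymerase I and its factors, and the box C/D and box H/ACA small nucleolar ribonucleoproteins (snoRNPs). It also holds abundant nucleolar proteins and assembly factors of each subunit. A gene was measured by a probe set to which the annotation of the array gives its symbol alone, and where several existed, by the one with the highest mean log2 intensity over 10 arrays. This left 44 of the 45 genes, among 14217 genes in all that have a probe set of their own. Npm1 was not counted, because its 3 probe sets also carry the symbol of a pseudogene. Of the 44 members, 34 have 1 probe set and the others have 2 to 4.

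In the nucleolus, RNA polymerase I transcribes a long precursor RNA, snoRNPs guide its 2′-O-methylation and pseudouridylation, and a large set of assembly factors cut, fold and pack it with ribosomal proteins. Growth factors and Myc are known to raise the transcription of many of these genes in dividing and growing cells. In the lens, FGF2 at a low dose keeps epithelial cells alive and dividing, whereas a high dose drives them to become fiber cells, which elongate, fill with crystallins, and later lose their nuclei and ribosomes.

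Lens explants from 3-day-old rat pups, which are pieces of capsule with attached epithelium, were given 100 ng/mL FGF2 for 2, 4, 12, or 24 hr, and the 0 hr explants had spent a night at 5 ng/mL FGF2, as all explants did. Each time point has 2 arrays from different cultures, or 10 arrays in all, with RMA intensities on a linear scale. Because no explants were kept at the low dose for the same number of hours, the higher dose and the time in culture cannot be told apart. The 2 and 4 hr points are called early below, and the 12 and 24 hr points late.

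The lens marker list summed to between 89853 and 109885 intensity units on the 10 arrays over 15 of its 16 genes. Of these 15, 1, 4, 7, and 4 fell at 2, 4, 12, and 24 hr and 1 rose, at 12 hr, where the median log2 fold change of the list was -0.34, and their part in the results below was not tested. Markers of pigmented epithelium, retina and immune cells stayed between 139 and 432 units, those of endothelium ran from 805 to 1733 and were lowest at 24 hr, and those of fibroblasts from 9042 to 13334, and the part of these other cells in the results below was not tested. In such bulk RNA, fewer cells of a type and less RNA per cell cannot be told apart. The 5S rRNA control read 183 to 209 units at 2 and 4 hr and 112 to 154 on the other arrays, and the log2 ratio of the 5′ to the 3′ probe sets of Gapdh was -0.30 to -0.17 at 2 and 4 hr, and between -0.14 and 0.00 elsewhere. The same ratio of Actb was -1.21 to -1.12 at 0 hr, -2.13 to -1.68 at 2 hr, -2.08 to -1.37 at 4 hr, -1.43 to -1.30 at 12 hr, and -1.88 to -1.75 at 24 hr, so that it was lower than at 0 hr on every later array. The numbers in the array names run on from 2 to 4 hr and from 12 to 24 hr, and those of 0 hr lie apart, so that the order of the arrays cannot be told apart from time except within those pairs.

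More ribosome biogenesis genes rose at 12 and 24 hr than at 2 and 4 hr, and 12 of the 44 were not called at any time. With a mean per time point fitted by limma and a Benjamini-Hochberg adjusted p under 0.05 over all 31042 probe sets as the threshold, 7 of the 44 members rose and 1 fell at 2 hr, where 8.61% of all probe sets rose and 8.88% fell. At 4 hr, 12 members rose and 1 fell, where 11.9% of all probe sets rose and 11.9% fell. At 12 hr, 25 members rose and 0 fell, and among all probe sets 8.94% rose, and 3111 of the 31042 fell, which makes 19.0% called in either direction. At 24 hr, 24 members rose and 0 fell, where the shares of all probe sets were 9.29% rising and 10.9% falling. As shares of the 44 members, those that rose were 15.9, 27.3, 56.8, and 54.5% from 2 to 24 hr. These genes are brighter than most, and of the 4704 named genes that lie in the brightness range of the middle 8 in 10 members, 12.4, 18.3, 15.8, and 15.5% rose.

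The rises were small. The median log2 fold change over the 44 members was 0.03, 0.14, 0.42, and 0.35 at 2, 4, 12, and 24 hr, where that over all probe sets was 0.00, -0.02, 0.02, and 0.03. The median of 0.42 at 12 hr is a 1.34-fold change, and 1 member, Rrp9, passed a log2 fold change of 1 at any time. The log2 change was above 0 for 43 members at 12 hr and 42 at 24 hr. At 12 hr both arrays lay above both 0 hr arrays for 39 members, and for 34.4% of all probe sets. At 24 hr this held for 38 members and for 34.9% of all probe sets.

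With 2 arrays per time point, the counts lean on single arrays. Without the first or the second 0 hr array, 14 and 8 members were called at 12 hr, and 11 and 9 at 24 hr, whereas leaving out a 12 hr array left 10 and 13 calls at 12 hr, and leaving out a 24 hr array 14 and 10 calls at 24 hr. Only 1 member was called at 2 hr without the first 0 hr array, and 0 without the second (12 rose and 3 fell at an unadjusted p under 0.05 in the fit to all arrays), while 3 were called without the first 2 hr array and 5 without any other array of 2, 12, or 24 hr. At 4 hr, 8 and 4 were called without the first or the second 0 hr array. The members called at 12 hr with every array left out in turn were Bop1, Ebna1bp2, Gnl3, Heatr1, Nolc1, Nop2, and Rrp9. At 24 hr they were Bop1, Ebna1bp2, Gnl3, Mybbp1a, Nop2, Rrp9, Wdr12, and Wdr43. The second 4 hr array read the members lower than the first by a median of 0.17 on the log2 scale, and the median change at 4 hr was 0.06 without the first and 0.26 without the second. With the Actb 5′ to 3′ ratio of each array as a covariate, the median change was 0.23, 0.27, 0.46, and 0.49 at 2, 4, 12, and 24 hr, and 3, 11, 32, and 25 members were called. Over all probe sets, the SD of the difference between replicate arrays was 0.29 and 0.30 at 2 and 4 hr. At 0, 12, and 24 hr it was 0.16, 0.17, and 0.21. Over the members it was 0.08, 0.16, 0.11, 0.11, and 0.09 from 0 to 24 hr. The fit shares its estimate of the spread over all times. With array weights, 8, 12, 34, and 30 members were called at 2, 4, 12, and 24 hr.

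**Figure D1:**
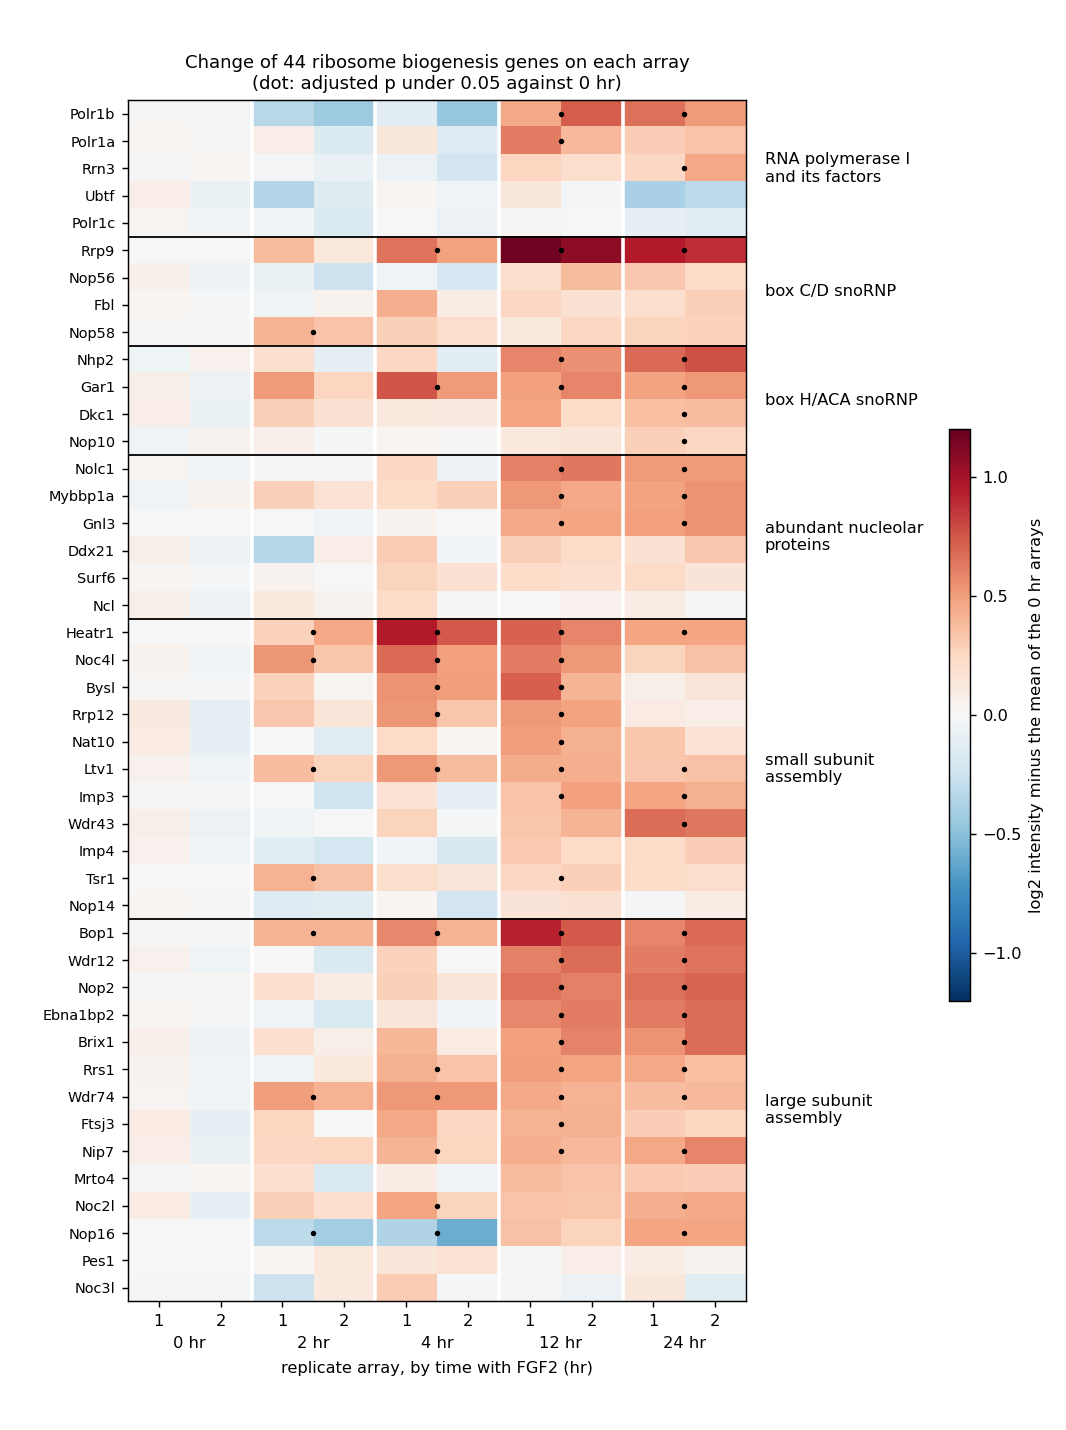
log2 intensity of each of the 44 members on each of the 10 arrays, minus the mean of its 0 hr arrays, with members grouped by role and sorted by their change at 12 hr. A dot marks an adjusted p under 0.05 against 0 hr, with 25 dots at 12 hr and 24 at 24 hr, and the lowest mean changes are -0.38 at 2 hr (Polr1b) and -0.48 at 4 hr (Nop16).

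Among RNA polymerase I and its factors, none of the 5 members was called at 2 or 4 hr, and 2 rose at each of 12 and 24 hr. Polr1b, the second largest subunit of the polymerase, read 284 and 277 at 0 hr, 222 and 209 at 2 hr, 256 and 205 at 4 hr, 385 and 463 at 12 hr, and 442 and 401 at 24 hr. Its late arrays all lay above both 0 hr arrays, and its early arrays all below them. The log2 fold change was 0.59 ± 0.13 (SE) at 12 hr (adjusted p = 0.015) and 0.59 at 24 hr (adjusted p = 0.015), and the values of -0.38 and -0.29 at 2 and 4 hr did not pass the threshold.

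Polr1a, the largest subunit, which holds much of the active site, read 421 and 408 at 0 hr, 437 and 371 at 2 hr, 456 and 372 at 4 hr, 638 and 541 at 12 hr, and 508 and 524 at 24 hr. It rose at 12 hr, by 0.50 ± 0.13 (adjusted p = 0.028), and had 0.32 at 24 hr (adjusted p = 0.14), although every late array was above both 0 hr arrays. Rrn3, the initiation factor that joins the polymerase to its promoter, read 1126 and 1158 at 0 hr, 1124 and 1078 at 2 hr, 1086 and 975 at 4 hr, 1366 and 1324 at 12 hr, and 1358 and 1579.7 at 24 hr. It rose at 24 hr by 0.36 ± 0.10 (adjusted p = 0.037).

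Polr1c, a subunit shared with RNA polymerase III, is among the 12 members with no call at any time, of which 5 were picked for their values after these had been seen. It read 1213 and 1166 at 0 hr, 1159.7 and 1063 at 2 hr, 1186 and 1136 at 4 hr, 1198 and 1189 at 12 hr, and 1111 and 1083 at 24 hr, a span of 1063 to 1213 units over all arrays. Ubtf, which binds the ribosomal DNA repeats and opens them for transcription, was not called with the probe set used here, and its other probe sets are described below.

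Rrp9 had the largest change of all 44 members. It is the protein that marks the U3 snoRNP, the box C/D particle that guides the first cuts of the precursor RNA, and it read 508 and 514 at 0 hr, 665 and 557 at 2 hr, 801 and 715 at 4 hr, 1143 and 1074 at 12 hr, and 988 and 941 at 24 hr. All arrays from 2 to 24 hr lay above both 0 hr arrays, and the late arrays above the early ones. The log2 fold change was 0.57 ± 0.11 at 4 hr (adjusted p = 0.0059), 1.12 at 12 hr (adjusted p = 0.00028), and 0.92 at 24 hr (adjusted p = 0.00072).

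Of the 3 core proteins of box C/D particles that are in the list, 1 was called, and at 2 hr alone. This was Nop58, a scaffold protein, with 4947 and 4735 units at 2 hr, against 3779.8 and 3685 at 0 hr, a log2 fold change of 0.38 ± 0.09 (adjusted p = 0.018). It was the only member called early and not late, and its values of 0.25, 0.18, and 0.27 at the later times were all above 0. Fbl, the methyltransferase fibrillarin, read 3019 and 2914 at 0 hr, 2884 and 3048 at 2 hr, 4003 and 3155 at 4 hr, 3524 and 3373 at 12 hr, and 3416 and 3625 at 24 hr, with its highest value on the first 4 hr array and all late arrays above both 0 hr arrays. Nop56, the partner of Nop58, read 2848 and 2634 at 0 hr, 2594 and 2311 at 2 hr, 2645 and 2387 at 4 hr, 3167 and 3574 at 12 hr, and 3435 and 3217 at 24 hr. Neither was called against 0 hr, but the late arrays of Nop56 lay above all early ones (difference 0.43 ± 0.08, adjusted p = 0.0021).

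All 4 members of the box H/ACA snoRNP, the pseudouridylation particle, rose at 24 hr. Nhp2, an RNA-binding core protein, read 1441 and 1553 at 0 hr, 1709 and 1394 at 2 hr, 1779.5 and 1371 at 4 hr, 2245 and 2192 at 12 hr, and 2400.3 and 2547 at 24 hr. Its late arrays lay above all the others, and the 2 and 4 hr pairs spread around the 0 hr level. It rose by 0.57 ± 0.14 at 12 hr (adjusted p = 0.023) and 0.73 at 24 hr (adjusted p = 0.0076).

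Gar1, which helps the particle to hold and release its substrate, was earlier, with 829 and 757 at 0 hr, 1129 and 945 at 2 hr, 1338 and 1128 at 4 hr, 1112 and 1189.8 at 12 hr, and 1104 and 1133 at 24 hr. It had its highest mean at 4 hr, 0.63 ± 0.12 above 0 hr (adjusted p = 0.0059), and stayed at 0.54 and 0.50 at 12 and 24 hr (adjusted p = 0.015 and 0.02). Dkc1, the pseudouridine synthase dyskerin, read 935 and 839 at 0 hr, 1078 and 1003 at 2 hr, 964 and 954 at 4 hr, 1233 and 1034 at 12 hr, and 1138 and 1148 at 24 hr, and passed the threshold at 24 hr alone (0.37 ± 0.11, adjusted p = 0.042). Nop10, the smallest core protein, had a log2 fold change of 0.27 at 24 hr (adjusted p = 0.048).

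Of the 6 abundant nucleolar proteins, 3 rose at 12 hr and the same 3 at 24 hr, with 0 called at 2 and 4 hr. Gnl3, the GTPase nucleostemin, showed the plainest course, with 1853 and 1873 at 0 hr, 1874 and 1807 at 2 hr, 1917 and 1874 at 4 hr, 2550.2 and 2581 at 12 hr, and 2628 and 2699 at 24 hr. The 6 arrays of 0, 2, and 4 hr lay between 1807 and 1917 units, and the 4 late arrays between 2550.2 and 2699. It rose by 0.46 ± 0.08 at 12 hr (adjusted p = 0.0039) and 0.52 at 24 hr (adjusted p = 0.0022).

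Nolc1, a chaperone of snoRNPs that moves between nucleolus and Cajal bodies, read 1067 and 1021 at 0 hr, 1052 and 1033 at 2 hr, 1238 and 992 at 4 hr, 1585 and 1615 at 12 hr, and 1487 and 1482 at 24 hr. Its late arrays were the 4 highest, and it rose by 0.62 ± 0.11 at 12 hr (adjusted p = 0.0049) and 0.51 at 24 hr (adjusted p = 0.011). Mybbp1a, a nucleolar protein known to bind RNA polymerase I and Myb, read 1361 and 1449 at 0 hr, 1712 and 1589 at 2 hr, 1632 and 1714 at 4 hr, 2018 and 1931 at 12 hr, and 1964 and 2036 at 24 hr. Here the early arrays already lay above the 0 hr arrays, but the change passed the threshold only at 12 hr (0.49 ± 0.09, adjusted p = 0.0049) and at 24 hr (0.51, adjusted p = 0.004).

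Ncl, nucleolin, which binds the precursor RNA and is among the most abundant proteins of the nucleolus, read 4719 and 4287 at 0 hr, 4866 and 4627 at 2 hr, 5246 and 4536 at 4 hr, 4506 and 4672 at 12 hr, and 4792 and 4547 at 24 hr. Its time points overlap, and its 4 log2 fold changes lay between 0.03 and 0.12. The RNA helicase Ddx21 and the nucleolar matrix protein Surf6 were not called either, with values of 0.26 and 0.21 at 12 hr.

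Assembly factors of the small subunit made up 4 of the 7 members that rose at 2 hr. Of the 11 in this group, 4, 5, 8, and 4 rose at 2, 4, 12, and 24 hr, and 0 fell. Heatr1, the counterpart of yeast Utp10 in the complex that couples transcription of the precursor to its processing, read 319 and 323 at 0 hr, 389.7 and 442 at 2 hr, 619 and 534 at 4 hr, 524 and 481 at 12 hr, and 446 and 444 at 24 hr. All arrays with 100 ng/mL FGF2 lay above both 0 hr arrays, and the highest were those of 4 hr. Its log2 fold change was 0.37 ± 0.11 at 2 hr (adjusted p = 0.042), 0.84 at 4 hr (adjusted p = 0.00075), 0.65 at 12 hr (adjusted p = 0.0033), and 0.47 at 24 hr (adjusted p = 0.014). It was also the only member called between 4 and 2 hr, with a difference of 0.47 (adjusted p = 0.048), where 2.24% of all probe sets rose and 1.50% fell. This call was lost with a replicate block, with the Actb covariate, with array weights, with median centring, and in a fit of the 2 and 4 hr arrays alone.

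Noc4l, known in yeast as a nuclear factor of small subunit maturation, read 462 and 433 at 0 hr, 644 and 564 at 2 hr, 714 and 628 at 4 hr, 688 and 643 at 12 hr, and 539 and 570.4 at 24 hr. It rose by 0.43, 0.58, and 0.57 at 2, 4, and 12 hr (± 0.11, adjusted p = 0.025, 0.0046, and 0.0061), and its 0.31 at 24 hr did not pass the threshold. Wdr43, a counterpart of yeast Utp5 in the same complex as Heatr1, was late instead, with 463 and 418 at 0 hr, 431 and 441 at 2 hr, 529 and 432 at 4 hr, 554 and 583 at 12 hr, and 699 and 681 at 24 hr. The 24 hr arrays were its highest, and it rose there by 0.65 ± 0.11 (adjusted p = 0.0042).

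Ltv1, which in yeast helps to release and export the small subunit, was called at all 4 times, with log2 fold changes of 0.32, 0.45, 0.44 and 0.34. Bysl and Rrp12, known in yeast for late nuclear maturation and export, rose at 4 and 12 hr and not at 24 hr. Bysl had 0.52, 0.56, and 0.11 at 4, 12, and 24 hr, and Rrp12 had 0.43, 0.50, and 0.09. Tsr1, a GTPase-like factor that sits on the immature subunit, rose at 2 hr (0.38) and 12 hr (0.27). Imp3, of the U3 particle, rose at 12 and 24 hr (0.42 and 0.45), and Nat10, an RNA acetyltransferase, at 12 hr (0.46). Imp4 and Nop14, also of the early small subunit particle, had 0.28 and 0.17 at 12 hr and no call.

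In the large subunit group of 14, the numbers that rose were 2, 5, 9, and 10 at 2, 4, 12, and 24 hr, and 1 member, Nop16, fell at 2 and 4 hr. The PeBoW complex, made of Pes1, Bop1, and Wdr12, is needed to process the precursors of the large subunit RNAs. Bop1 read 513 and 505 at 0 hr, 679.5 and 676 at 2 hr, 757 and 679.9 at 4 hr, 967 and 849.9 at 12 hr, and 763 and 814 at 24 hr. Every array with 100 ng/mL FGF2 lay above both 0 hr arrays, and Bop1 was called at all 4 times, by 0.41, 0.49, 0.83, and 0.63 (± 0.10, adjusted p = 0.022, 0.007, 0.0007, and 0.0026).

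Wdr12 rose only late, by 0.64 at 12 hr and 0.63 at 24 hr (± 0.11, adjusted p = 0.0051 and 0.0052), and its values at 2 and 4 hr were -0.09 and 0.14. Pes1, in the same complex, read 982 and 981 at 0 hr, 995 and 1069 at 2 hr, 1089 and 1110.3 at 4 hr, 963 and 1038 at 12 hr, and 1042 and 1012 at 24 hr. Its arrays spanned 963 to 1110.3 units, and the largest of its 4 log2 fold changes was 0.16. Whether Pes1 differs from its partners was not tested.

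Nop2, a methyltransferase of the large subunit RNA, read 705 and 722 at 0 hr, 821 and 757 at 2 hr, 869 and 790.2 at 4 hr, 1118 and 1082 at 12 hr, and 1127 and 1160.0 at 24 hr. The 4 late arrays were its highest, and it rose by 0.62 ± 0.09 at 12 hr (adjusted p = 0.0017) and by 0.68 at 24 hr (adjusted p = 0.0011). Ebna1bp2, the counterpart of yeast Ebp2, read 2345 and 2281 at 0 hr, 2226 and 2038 at 2 hr, 2549.7 and 2255 at 4 hr, 3442 and 3533 at 12 hr, and 3553 and 3682 at 24 hr. Its early arrays fell around the 0 hr level and its late arrays stood well above it, at 0.59 ± 0.09 (adjusted p = 0.0028) and 0.65 (adjusted p = 0.0018).

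Nop16 was the only member called in both directions. It is a nucleolar protein of the large subunit precursor whose human gene is a known Myc target, and it read 2117 and 2141 at 0 hr, 1709 and 1599 at 2 hr, 1658 and 1408 at 4 hr, 2708 and 2555 at 12 hr, and 2948 and 2956 at 24 hr. All early arrays lay below both 0 hr arrays, and all late arrays above them. It fell by 0.36 on the log2 scale at 2 hr (adjusted p = 0.036) and by 0.48 at 4 hr (adjusted p = 0.0086), had 0.31 at 12 hr (adjusted p = 0.066), and rose by 0.47 at 24 hr (adjusted p = 0.011), with a standard error of 0.10.

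Wdr74, which in mammals works with an ATPase that remodels the large subunit precursor, was called at all 4 times, with log2 fold changes of 0.46, 0.52, 0.43 and 0.38. Nip7 rose at 4, 12, and 24 hr, by 0.33, 0.41, and 0.53, and so did Rrs1, which in yeast helps to place the 5S particle, by 0.38, 0.49, and 0.41. Noc2l rose at 4 and 24 hr (0.37 and 0.44), Brix1 at 12 and 24 hr (0.54 and 0.60), and Ftsj3, a methyltransferase, at 12 hr (0.42). Mrto4 had 0.36 at 12 hr with no call. Noc3l read 24.4 to 35.8 units, well under the array medians of 98.0 to 100.2, and was not called.

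**Figure D2:**
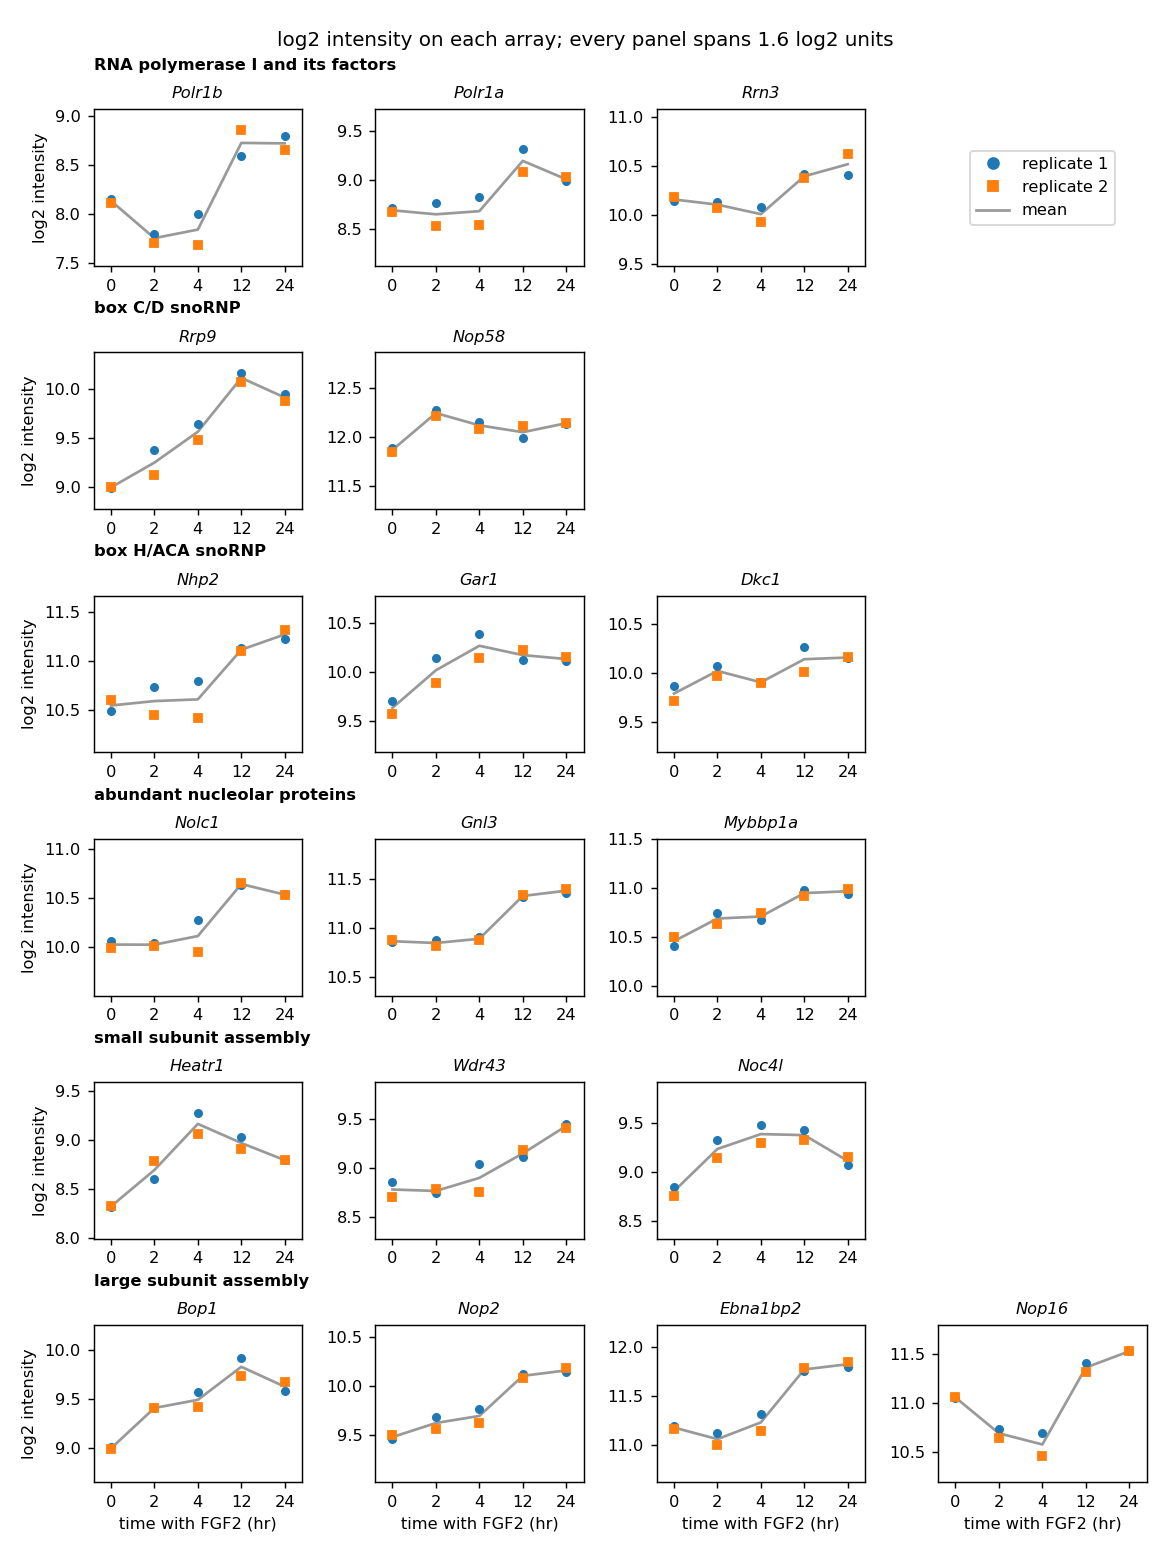
log2 intensity on each array at 0, 2, 4, 12, and 24 hr for 18 of the members described above, by role, with the times evenly spaced, replicate 1 as circles, replicate 2 as squares and the mean as a line. Each panel spans 1.6 log2 units, and in Gnl3, Ebna1bp2, and Nop2 the 4 late arrays lie above the other 6.

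By course, 18 members rose late and not early, 13 rose both early and late, of which 4 (Bop1, Wdr74, Heatr1, and Ltv1) were called at all 4 times, 1 rose early alone (Nop58), and 12 were not called at any time. The difference between phases was then tested itself, as the mean of 12 and 24 hr minus the mean of 2 and 4 hr, which uses no 0 hr array and, by the array names, sets arrays against others from a distant part of the order. It was positive and past the threshold in 23 members and negative in 0, where 19.9% of all probe sets were higher late and 19.3% lower. Of the 4704 named genes of like brightness, 28.1% were higher late and 28.3% lower. The median difference was 0.23 on the log2 scale, against 0.03 over all probe sets.

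The largest differences were those of Polr1b (0.93 ± 0.09, adjusted p = 0.00011), Nop16 (0.81 ± 0.07, adjusted p = 5.1e-05), and Ebna1bp2 (0.65 ± 0.07, adjusted p = 0.00011). Of the 12 without a call against 0 hr, 4 passed it, namely Nop56, Imp4, Nop14, and Mrto4. For Imp4 and Mrto4 (0.41 and 0.31), a dimmer probe set of each did not pass it. These were 1379407_at of Imp4 (-0.02) and 1378120_at of Mrto4 (0.05). Heatr1, Noc4l, Wdr74, and Ltv1 lay between -0.08 and 0.00, within 2 standard errors of 0. Between 24 and 12 hr, 0 members were called (1 was higher and 4 lower at an unadjusted p under 0.05), where 2.22% of all probe sets rose and 2.12% fell, and the median was -0.01.

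**Figure D3:**
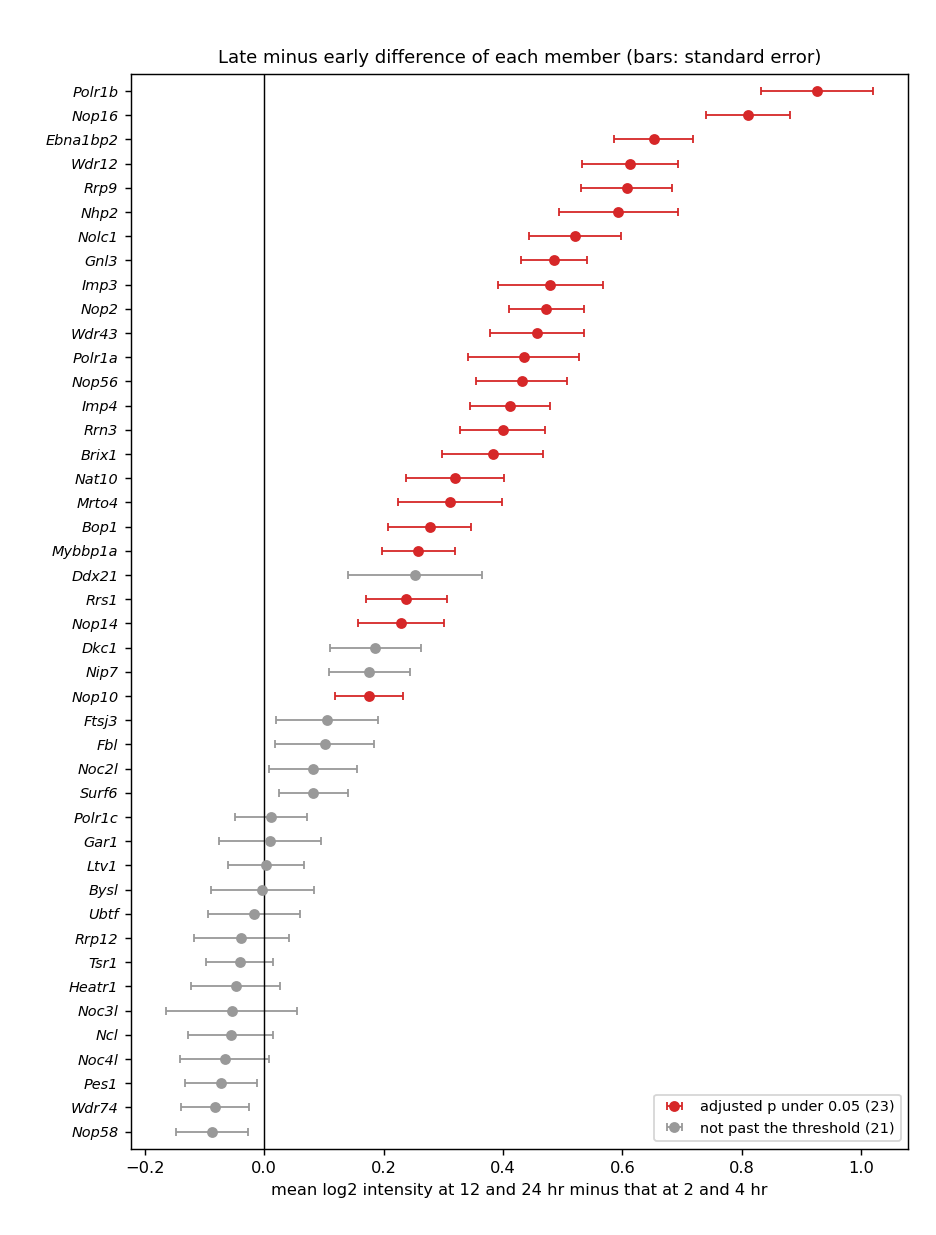
Mean log2 intensity at 12 and 24 hr minus the mean at 2 and 4 hr for each of the 44 members, sorted, with standard errors as bars. The 23 members past the threshold all lie to the right of 0, and the rest reach no lower than -0.09 (Nop58).

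Other genes of the pathway, drawn from a longer list of 115 measured ribosome biogenesis genes outside the 45, were counted in the same way. Of these 115, those that rose numbered 13, 31, 41, and 40 at 2, 4, 12, and 24 hr, and those that fell 3, 6, 1, and 1, with a median of 0.26 at 12 hr and 0.29 at 24 hr. As shares of the 115, those that rose were 11.3, 27.0, 35.7, and 34.8%. Of all probe sets, 8.61, 11.9, 8.94, and 9.29% rose at the same times. Late against early, 42 (36.5%) were higher and 11 (9.6%) lower, where 19.9% of all probe sets were higher and 19.3% lower. Among small subunit factors, Utp4 (cirhin) had 0.24, 0.37, 0.91 and 0.82 at 2, 4, 12, and 24 hr, and Nop9 had 0.47, 0.87, 0.63 and 0.37. Aatf fell at 2 and 4 hr (-0.39 and -0.73). Among large subunit factors, Urb2 rose at all 4 times (0.89, 0.84, 0.58 and 0.65), Nol12 at 2, 4, and 12 hr (0.62, 0.86, and 0.48), and the AAA ATPase Mdn1 had 0.36, 0.59, 0.86 and 0.51, with no call at 2 hr.

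Of 10 measured RNA polymerase I genes outside the 45, those that rose numbered 1, 4, 4, and 3 at 2, 4, 12, and 24 hr, and those that fell 2, 2, 0, and 1. Polr1e rose late (0.78 at 12 hr, adjusted p = 0.0011), and Polr1d, a subunit shared with RNA polymerase III, fell at 2 and 4 hr (-0.51 and -0.67, adjusted p = 0.0077 and 0.0012). Taf1d, of the promoter factor SL1, fell at 2, 4, and 24 hr, and had -0.61, -0.88, -0.32 and -0.62. Of 17 genes of snoRNP assembly and the nuclear exosome, 1, 2, 4, and 4 rose at the same times, and 1 fell, at 4 hr. The RNA exosome subunit Exosc5 fell at 4 hr (-0.51) and rose at 12 and 24 hr (0.90 and 0.99), and Ruvbl1, an ATPase of snoRNP assembly, rose at 12 and 24 hr (0.71 and 0.85), as did the exosome subunit Exosc4 (0.59 and 0.62).

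Ribosomal protein genes, the other component of the ribosome, were set beside these. Of 43 measured genes of the cytosolic ribosome, 0 rose at any of the 4 times, also at an unadjusted p under 0.05 in the limma fit, and 2 fell at 24 hr (Rpl28, -0.64, and Rps13, -0.37), with medians of -0.08, -0.10, 0.00, and 0.06. Late against early, 9 of the 43 (20.9%) were higher and 1 (2.3%) was lower. Of all probe sets, 19.9% were higher and 19.3% lower. At an unadjusted p under 0.05 in the limma fit, 15 of the 43 were higher and 1 was lower. Their median difference was 0.10, against 0.03 over all probe sets. Of 73 measured genes of the mitochondrial ribosome, 1 rose at 2 hr while 10 fell, and 29 rose at 24 hr while 3 fell. Late against early, 46 of the 73 were higher and 1 was lower. The largest change among them was that of Mrpl40, with -0.52, -0.35, 0.71 and 1.01.

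**Figure D4:**
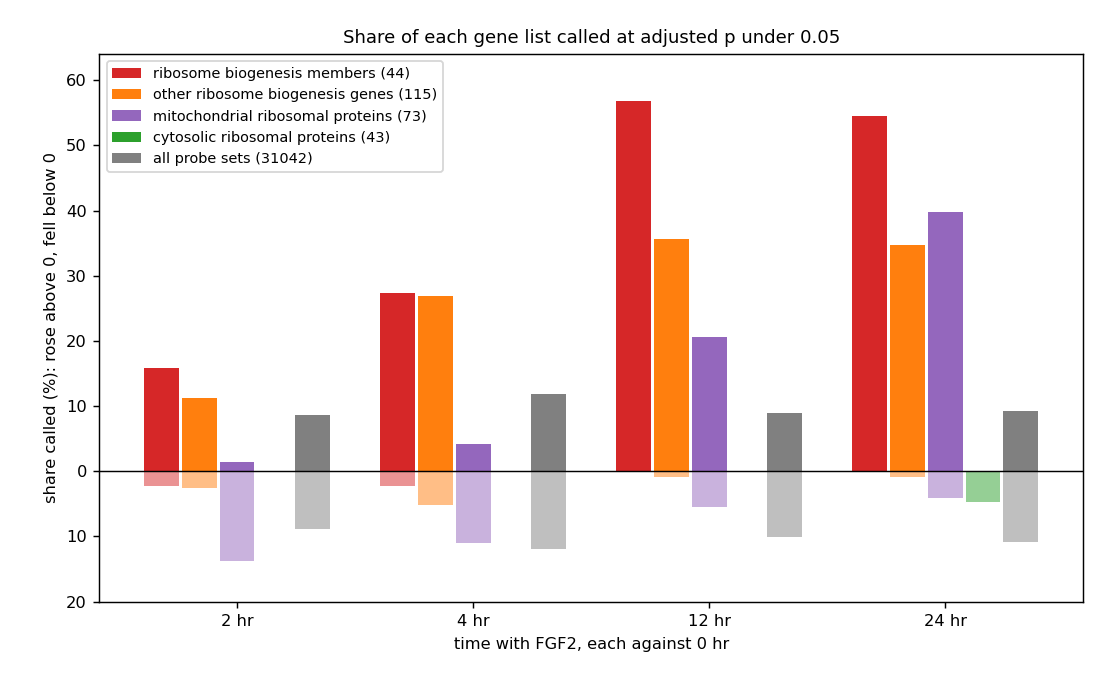
Share of each gene list called against 0 hr at 2, 4, 12, and 24 hr, with genes that rose above the line and genes that fell below it, for the 44 members, 115 other ribosome biogenesis genes, 73 mitochondrial and 43 cytosolic ribosomal protein genes, and all 31042 probe sets. The members reach 56.8% at 12 hr and 54.5% at 24 hr, and the cytosolic ribosomal proteins show no bar above the line.

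Myc, a transcription factor that binds many ribosome biogenesis genes together with Max, was itself called at 2, 4, and 12 hr. It read 63.2 and 44.9 at 0 hr, 308 and 449 at 2 hr, 294 and 202 at 4 hr, 199.6 and 155 at 12 hr, and 44.8 and 71.1 at 24 hr. Its log2 fold changes of 2.80, 2.19, and 1.73 ± 0.29 passed the threshold (adjusted p = 0.00062, 0.001, and 0.0041), and at 24 hr its arrays overlapped those of 0 hr (0.08). The 0 and 24 hr readings of Myc lay under the array medians of 98.0 to 100.2, so the sizes of these changes rest on a low baseline. Mycn, the close relative, took another course, with 1459.9 and 1439 at 0 hr, 594 and 628 at 2 hr, 1536 and 1483 at 4 hr, 2544 and 2576 at 12 hr, and 2870.2 and 2642 at 24 hr. Both of its 2 hr arrays lay far below both 0 hr arrays (adjusted p = 9.2e-05), and it rose at 12 and 24 hr by 0.82 and 0.93 (± 0.08, adjusted p = 0.00037 and 0.0002).

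Mycl fell at 4, 12, and 24 hr (-1.43, -1.24, and -0.96), and Max was not called at any time, with values between -0.19 and 0.06. Of the Max partners that act against Myc, Mxi1 fell at 2 and 4 hr (-0.89 and -1.40), Mnt fell at 12 hr (-0.49), and Mxd3, near the low end of the scale, rose at 4 hr (0.66). Mlx, which pairs with Mondo factors, fell at 2 hr (-0.57), and Mga, Mxd1, and Mxd4 had no call.

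The sequence that Myc and Max bind, the E-box CACGTG, was looked for in RefSeq promoter windows of the rat assembly GRCr8, from 250 bases before to 50 bases after the annotated start of each gene. Windows were given for 42 of the 45 genes (all but Bop1, Rrs1, and Wdr43), and 13 of the 42 (31.0%) hold CACGTG, which reads the same on either strand, as do 7.27% of 19005 protein-coding windows and 10.7% of 4013 windows of named genes as bright as the members. Among the other ribosome biogenesis genes 28 of 106 (26.4%) hold it, and among cytosolic ribosomal protein genes 3 of 38 (7.89%). The core of Ets factor sites, CCGGAAG on either strand, is in 21 of the 42 windows (50.0%), in 11.2% of all windows, in 23.0% of those of like brightness, in 50.0% of those of the other biogenesis genes, and in 21.1% of those of cytosolic ribosomal proteins. CTCGCGAG, the same on both strands, is in 3 of the 42 (7.14%), in 1.12% of all windows, and in 2.17% of those of like brightness. It is in 2.83% of the windows of other biogenesis genes and in 13.2% of those of cytosolic ribosomal proteins. None of the 3 motifs is contained in another.

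Of the 13 members with an E-box, 2, 3, 9, and 6 rose at 2, 4, 12, and 24 hr, and of the 28 measured members with a window and none, 4, 7, 14, and 15 rose. The windows of 9 members are printed below, 5′ to 3′ on the strand of the gene, to show where the E-box lies in members that rose late (Ebna1bp2, Gnl3, Nop2, and Mybbp1a), in members that rose at 4 and 12 hr or at all times (Bysl, Rrp12, and Ltv1), and in members never called (Fbl and Pes1). The capitals mark CACGTG.
Ebna1bp2: gcgtcttgctggCACGTGgagtggcagccg
Gnl3: agttccagttcgCACGTGgcgcccgagacg
Nop2: tgaactcttccccaagtgCACGTGgagcgg
Mybbp1a, upstream site: gcagtttctacaCACGTGtgcgagcacagg
Mybbp1a, start site: gtctttcgagccCACGTGtttggttcagca
Bysl: tagccggcttcaCACGTGtaaactttgtgg
Rrp12: gctgagaatacaCACGTGggttctgctgtg
Ltv1: gacctgtctaccCACGTGtagagctgccgg
Fbl: ggcgcttttttcCACGTGtgaaagcctgag
Pes1: ccctaagcggggCACGTGcggtaggaagta

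In GRCr8 these stretches are Ebna1bp2 chr5:137433552-137433581 (plus strand), Gnl3 chr16:6219790-6219819 (minus), Nop2 chr4:159618986-159619015 (plus), and the Mybbp1a pair at chr10:57555290-57555319 and chr10:57555445-57555474 (plus). Bysl is at chr9:20880361-20880390 (plus), Rrp12 at chr1:250655298-250655327 (minus), Ltv1 at chr1:9398601-9398630 (minus), Fbl at chr1:92597416-92597445 (plus), and Pes1 at chr14:83074284-83074313 (plus). The E-box begins 25 bases before the start in Gnl3, 61 before in Ltv1, 50 before in Pes1, and 156 and 1 before in Mybbp1a, and it begins 31, 39, 33, 4, and 22 bases into the transcript in Ebna1bp2, Nop2, Bysl, Rrp12, and Fbl. Fbl and Pes1, which had no call, carry the same letters as members with a call. The match by itself does not say that any factor binds there, and whether the E-box bears on the changes was not tested.

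Where a member has several probe sets, they did not always follow the same course. Ubtf is the clearest case. The probe set used, 1374498_at, read 642 and 574 at 0 hr, 475 and 550.4 at 2 hr, 616 and 587 at 4 hr, 665 and 596 at 12 hr, and 465 and 488 at 24 hr, with no call. The dimmer 1389830_at read 338 and 321 at 0 hr, 565 and 564 at 2 hr, 512 and 639 at 4 hr, 353 and 366 at 12 hr, and 273 and 247 at 24 hr, and rose by 0.78 at 2 hr and 0.80 at 4 hr (adjusted p = 0.0029 and 0.0015), with 0.13 and -0.35 at 12 and 24 hr. Another, 1371188_a_at, rose by 0.66 and 0.74 at the same times, and both were lower late than early, by 0.90 and 0.76. The last, 1371187_a_at, read 17.6 to 23.8 units.

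Nolc1 has a dim probe set, 1368033_at, that fell at 2 and 4 hr (-0.66 and -0.58) and rose at 12 hr (0.74). Its probe set 1368031_at rose at 24 hr as the one used did (0.54), but was not called at 12 hr (0.30, adjusted p = 0.13). For Nop56, 1395998_at fell at 2 hr (-0.74, adjusted p = 0.029), and its late values exceeded its early ones by 0.79, in the same direction as the probe set used. For Brix1, 1395479_at rose at 2, 4, and 24 hr (0.32, 0.54, and 0.57), and its late minus early difference was 0.00, where that of the probe set used was 0.38. For Rrp12, all 3 probe sets rose at 4 and 12 hr and were not called at 24 hr. Which part of the transcript each probe set covers was not examined here.

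**Figure D5:**
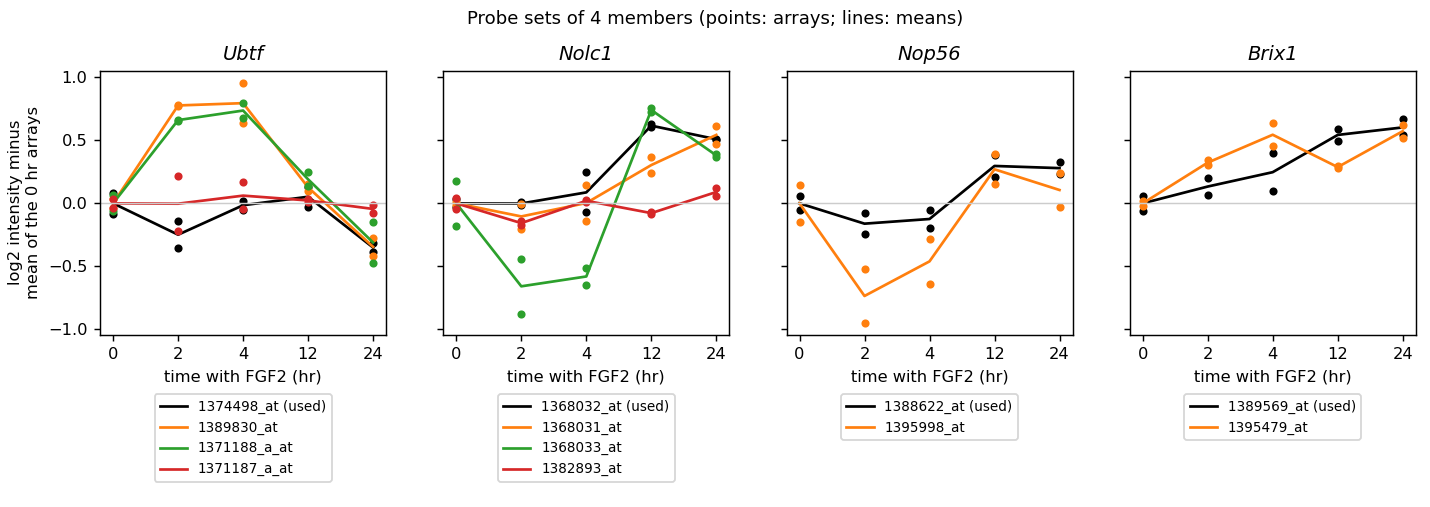
log2 intensity minus the mean of the 0 hr arrays for each probe set of Ubtf, Nolc1, Nop56, and Brix1, at evenly spaced times not to scale, with points for arrays and lines for means, and the probe set used above in black. For Ubtf, 2 probe sets rise at 2 and 4 hr while the one used does not.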

How the data were processed

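Total RNA of rat lens explants was amplified and hybridized to Affymetrix arrays, 2 per time point. The deposited intensity values are RMA output of the authors (version not given in the sources used here) on a linear scale. Their log2 was used without renormalizing, and 57 array controls were left out. Gene symbols came from the array annotation on GEO, and 436 probe sets with several symbols and 9780 with none were tested but not named.

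In R 4.3.3, limma 3.58.1 fitted 1 mean per time point to each of 31042 probe sets over all 10 arrays (lmFit, eBayes), with 5 residual degrees of freedom and a prior of 3.69 degrees of freedom. Contrasts were each time against 0 hr, 4 against 2 hr, 24 against 12 hr, and late against early, with a call where the p adjusted over all probe sets (Benjamini-Hochberg) was under 0.05. Standard errors are those of the fit, and the number of arrays limits the precision. The fit was run on simulated data to check the code. Those data had noise of the same spread at every time, unlike these arrays, and were not used to judge calls of small changes. Replicate arrays are of different cultures.

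Per-array values are given for up to 3 members per role with the largest called change, for the member called in both directions, and for a few without calls. Members, lists and tests were chosen with earlier results of these data known. To see whether replicate numbers pair the samples, replicate deviations were correlated between times, and since only 2 and 4 hr passed 0.1 (r = 0.33), samples were not paired. Alternatives were unadjusted p, a fold minimum of 1.25, other variance priors, normalizations, filters and probe set rules, array weights, a covariate, a replicate block, and each array left out. Others were the groups of a contrast fitted alone, also by a plain analysis of variance at an unadjusted p under 0.05. A fit without the 2 and 4 hr arrays was added after the data were seen. Promoter windows are from RefSeq. Figures were drawn with matplotlib 3.10.9 in Python 3.11.15.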

Additional observations from a re-analysis of the deposited data

Results flagged for a closer look

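The early and late changes of 23 members differed by a test of the difference itself, the mean of 12 and 24 hr minus the mean of 2 and 4 hr on the log2 scale (limma, adjusted p under 0.05). In RNA polymerase I and the snoRNPs these were Polr1b (0.93), Polr1a (0.43), Rrn3 (0.40), Rrp9 (0.61), Nop56 (0.43), Nhp2 (0.59), and Nop10 (0.18). Among abundant nucleolar proteins and small subunit factors they were Nolc1 (0.52), Gnl3 (0.48), Mybbp1a (0.26), Imp3 (0.48), Wdr43 (0.46), Imp4 (0.41), Nat10 (0.32), and Nop14 (0.23). In the large subunit group they were Nop16 (0.81), Ebna1bp2 (0.65), Wdr12 (0.61), Nop2 (0.47), Brix1 (0.38), Mrto4 (0.31), Bop1 (0.28), and Rrs1 (0.24). Of the 23, 17 were called with each array left out in turn. Other probe sets of Imp4 (1379407_at), Mrto4 (1378120_at), and Brix1 (1395479_at) were not called for this difference, with -0.02, 0.05, and -0.004. By the array names the 2 phases lie apart in the order of arrays, so that phase and array order cannot be told apart in these values.

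Probe sets of members that were not used above had a call where the probe set used had none or another, which marks a signal outside the main measurement. At 4 hr, the Ubtf probe sets 1389830_at and 1371188_a_at rose by 0.80 and 0.74, and the Brix1 probe set 1395479_at rose by 0.54. At 2 hr, the log2 fold change was -0.66 for the Nolc1 probe set 1368033_at and -0.74 for the Nop56 probe set 1395998_at. At 12 hr, the Rrn3 probe set 1380022_at rose by 0.34. Time points of 2 arrays are too small to test single arrays as outliers.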

How the results depend on the processing

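Members called numbered 8, 13, 25, and 24 at 2, 4, 12, and 24 hr, 1 for 4 against 2 hr, 0 for 24 against 12 hr, and 23 for late against early, and no alternative fit reversed the direction of a named change. At an unadjusted p under 0.05, 15 were called at 2 hr, 6 for 4 against 2 hr, and 5 for 24 against 12 hr. A fit of the groups of a contrast alone called 2 at 2 hr, 0 for 4 against 2 hr, and 1 for 24 against 12 hr. A plain analysis of variance of those groups alone, at an unadjusted p under 0.05, called 9 for 24 against 12 hr. With the Actb ratio as a covariate, 3 were called at 2 hr and 0 for 4 against 2 hr, and the medians moved to 0.23 at 2 hr, 0.27 at 4 hr, 0.49 at 24 hr, and 0.078 for 24 against 12 hr. Median centring and array weights called 0 for 4 against 2 hr. For 24 against 12 hr, array weights called 3, the mean of all probe sets of a gene 2, and the fit without the 2 and 4 hr arrays, chosen after seeing the data, 3 (all lower at 24 hr), and that last fit called 31 at 12 hr and 29 at 24 hr. With a replicate block 7, 13, 24, and 22 were called at 2, 4, 12, and 24 hr, 0 for 4 against 2 hr and 22 for late against early, and of the 18 members named with every array, Rrn3 was no longer called. With each array left out, counts ranged from 0 to 10 at 2 hr, 4 to 16 at 4 hr, 8 to 28 at 12 hr, 9 to 26 at 24 hr, and 0 to 1 for 4 against 2 hr, and the median from 0.060 to 0.26 at 4 hr and from 0.025 to 0.22 for 4 against 2 hr. A time point left with 1 array is assumed to vary like the others. Over all alternatives 375 of 409 values of the 18 named changes kept their side of the threshold. The cause of these shifts was not tested. With 2 arrays per time point, standard errors were 0.08 to 0.16, which limits the calls of small changes.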
